A study of Mus musculus with 32 samples.

Results

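Genes of glycolysis and of the response to low oxygen were followed in RNA-seq of sorted mouse blood stem and progenitor cells. The set holds 34 genes out of 41388 listed per library and was given as a list of names: 4 transporters of glucose or lactate, 9 enzymes of the upper and 8 of the lower part of glycolysis including lactate dehydrogenase, 6 regulatory kinases and 7 genes of the hypoxia response. All 34 were found and all 34 passed the filter on low counts, in 15818 genes tested for the Vav cohort and 19616 for the Mx1 cohort. Haematopoietic stem cells (HSC) were sorted by the gate Lin-, cKit+, Sca1+, CD48- with CD150+. The CD150- cells of that gate were taken as multipotent progenitors (MPP). The Vav cohort held 12 libraries of C57BL/6 mice aged 8 weeks, 3 each of control HSC, control MPP, Jarid2-KO HSC and Jarid2-KO MPP, where controls are labelled wild-type and all carry the driver label Vav-CRE, which recombines in all blood lineages. The Mx1 cohort held 12 libraries of C57BL/6 mice aged 10 weeks, 2 months after pIpC, the agent that induces Mx1-CRE in blood and other tissues. It had 2 libraries each of HSC and MPP from wild-type, Jak2V617F and Jak2V617F - Jarid2KO mice, the last called double mutant here. Mice were pooled for each library, and H3K27me3 samples of the series were not analysed here.

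Glycolysis breaks glucose down to pyruvate in the cytosol, and lactate dehydrogenase turns pyruvate into lactate when it does not enter mitochondria. Hypoxia-inducible factors (HIF), made of an oxygen-regulated alpha subunit such as Hif1a or Epas1 and a constant partner, bind short DNA elements and raise the transcription of many glycolytic genes when prolyl hydroxylases such as Egln1 and Egln3 lack oxygen. Haematopoietic stem cells of the marrow are known for relying on glycolysis, with pyruvate dehydrogenase kinases holding pyruvate out of the mitochondria. Jarid2 helps recruit Polycomb repressive complex 2 to chromatin, and Jak2V617F is an activated kinase found in myeloproliferative disease.

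Libraries of the Vav cohort held 10473535 to 27232379 counts and those of the Mx1 cohort 7852483 to 20724168. The sort labels were matched by the markers in the Vav cohort: Slamf1, the gene of CD150, lay between 57.4 and 95.5 CPM (its counts scaled to the library's total) in HSC and between 2.19 and 14.1 in MPP. Flt3, a progenitor receptor, lay between 17.6 and 69.3 CPM in HSC and between 133 and 580 in MPP. Jarid2 itself was not lower in libraries labelled Jarid2-KO, at 103 ± 36.3 CPM in HSC against 93.9 ± 15.8 in controls and at 116 ± 11.7 in MPP against 109 ± 17.2 (mean ± SD, n = 3 each). In the Mx1 cohort Jarid2 stood at 68.3 and 169 CPM in double mutant HSC against 51.5 and 63.5 in Jak2V617F HSC. In Mx1 MPP it stood at 52.6 and 93.2 CPM in the double mutant against 55.9 and 69.1 in Jak2V617F. These counts sum all exons of the gene, so an allele lacking some exons is not checked by them, and genotypes below are as labelled. A single library, Jarid2-KO MPP replicate 1, stood apart in several marker lists, and results that rest on it are given with and without it. In bulk samples, fewer cells of a type and less RNA per cell cannot be told apart.

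Levels were compared between genes per gene length, as RPKM (CPM per kilobase of gene) averaged over the 12 Vav libraries. The aldolase Aldoa led at 420 RPKM (297 to 602), followed by the pyruvate kinase gene Pkm at 312 (271 to 397), Ldha at 164 (113 to 262), Ldhb at 133 (106 to 153), Tpi1 at 95.4 (67.6 to 138) and Gpi1 at 84.1 (62.0 to 131). Epas1 was lowest at 0.384 RPKM, next to Pdk4 at 0.629 and Slc16a3 at 0.634. Among isozymes, Aldoa stood above Aldoc (17.8 RPKM), Hk1 (22.9) above Hk2 (12.0), and the liver-type phosphofructokinase Pfkl (54.4) above the muscle type Pfkm (30.7) and the platelet type Pfkp (9.43). The neuronal-type glucose transporter Slc2a3 stood at 43.9 RPKM and the ubiquitous transporter Slc2a1 at 14.9.

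Of the hypoxia genes, the mitophagy receptor Bnip3 was highest at 20.0 RPKM. The factor Hif1a stood at 8.69 and the hydroxylase Egln1 at 7.40, while Ankrd37, Egln3 and the growth factor Vegfa had 2.27, 1.26 and 0.929 RPKM. A group of lower-pathway enzymes was listed far below their neighbours: Pgk1 at 6.41 RPKM, Gapdh at 5.12 and Pgam1 at 0.750. These genes have many near-identical processed copies in the mouse genome, between which reads can be split or discarded. The named copies Gapdh-ps14, Gapdh-ps15, Pgk1-rs7, Pgam1-ps1 and Pgam1-ps2 were also listed. Each of these held at most 7 counts in any Vav library. Levels and differences of Gapdh, Pgk1 and Pgam1 are therefore uncertain, and what set them low was not tested. Copies of Ldha and Eno1 were listed too. Ldha-ps and Ldha-ps2 held at most 14 and 11 counts in any Vav library. Eno1b held 4 to 97, with 52 in control HSC replicate 1 and 97 in control MPP replicate 1. Whether reads of Ldha or Eno1 were split or discarded in the same way was not tested.

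**Figure D1:**
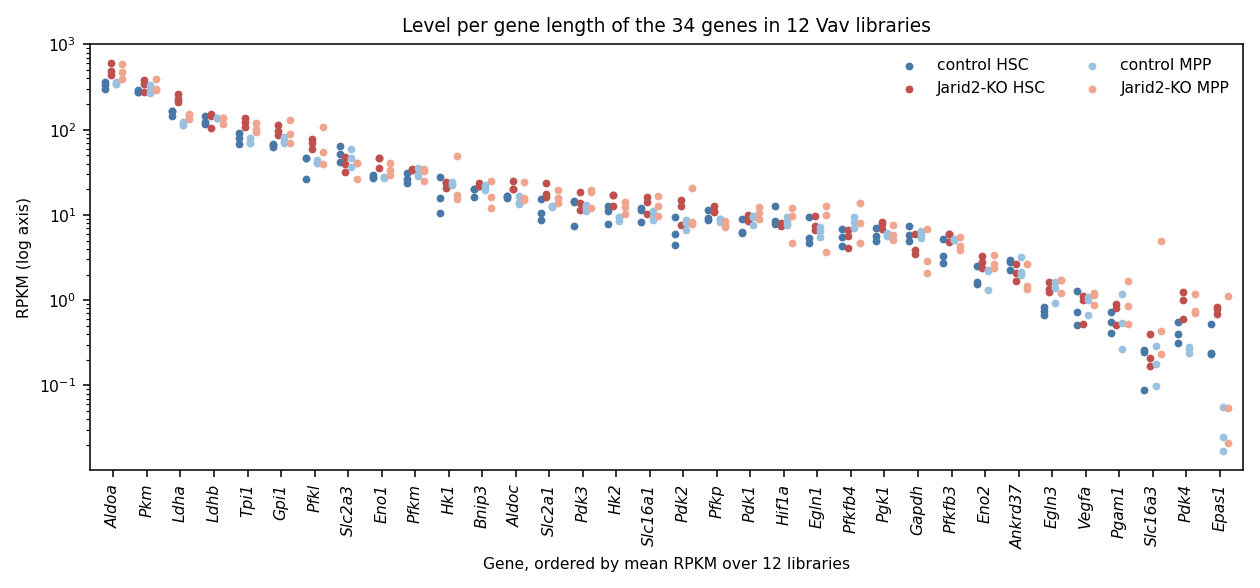
RPKM (CPM per kilobase of gene, log axis) of each of the 34 genes in the 12 Vav libraries, one point per library, coloured by group and ordered by the mean. Aldoa, Pkm and Ldha head the order with means of 420, 312 and 164 RPKM, and Slc16a3 shows 1 Jarid2-KO MPP library far above the others.

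The first comparison asked how the loss of Jarid2 changes stem cells. Jarid2-KO HSC held more transcript of most glycolytic genes than control HSC, by a small step that no single gene carried past the adjusted test. The log2 fold change was above 0 for 29 of 34 genes, against 48.1% of all genes tested, with a median of 0.32 (all genes -0.03). Transcripts of the 34 genes made up 0.428 to 0.441% of counts in control HSC and 0.511 to 0.650% in Jarid2-KO HSC. None of 34 passed an adjusted p of 0.05 in edgeR's quasi-likelihood test, by which 90 of 15818 genes (0.569%) passed. At an unadjusted p under 0.05 there were 11 of 34 genes, all higher, against 17% of all genes in either direction. The count was 7 of 34 without control replicate 2, where all genes gave 1575 of 16781. It was 5 of 34 without Jarid2-KO replicate 2, where all genes gave 1381 of 16481.

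The 3 Jarid2-KO libraries lay wholly above the 3 controls for 14 of 34 genes (41.2%), where this held for 16.2% of all genes. They lay wholly below the controls for 0 of 34, where this held for 10.7% of all genes. All 9 enzymes of the upper part had a log2 fold change above 0, with a median of 0.52 and a range of 0.18 to 0.73. Of the lower part 7 of 8 were above 0 (median 0.33), of the transporters 3 of 4 (median 0.32), of the regulatory kinases 5 of 6 (median 0.40) and of the hypoxia genes 5 of 7 (median 0.18).

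Triose phosphate isomerase, Tpi1 (mm10 chr6:124810586-124814296), had the smallest p of the set. Its level was 204, 149 and 177 CPM in control HSC and 276, 305 and 237 CPM in Jarid2-KO HSC. The groups did not overlap (log2 0.56, SE 0.17, adjusted p = 0.15). Lactate dehydrogenase A, Ldha (chr7:46841475-46855627), which makes lactate from pyruvate, stood at 489, 436 and 489 CPM in control and 678, 780 and 634 CPM in Jarid2-KO HSC. Again every Jarid2-KO library was above every control (log2 0.50, SE 0.17, adjusted p = 0.17).

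The enolase Eno1 (chr4:150236721-150248879) had 146, 149 and 157 CPM in control and 251, 253 and 189 CPM in Jarid2-KO HSC (log2 0.55, SE 0.18, adjusted p = 0.17). Aldoa (chr7:126795234-126800751), which splits fructose bisphosphate, had 1009, 916 and 819 CPM in control and 1348, 1659 and 1198 in Jarid2-KO HSC (log2 0.55, SE 0.21, adjusted p = 0.22). Both genes separated the genotypes without overlap. Gpi1, the isomerase after hexokinase, had 308, 279 and 294 CPM in control and 432, 512 and 394 in Jarid2-KO HSC (log2 0.54, SE 0.22, adjusted p = 0.24). Pfkl had 116, 204 and 206 CPM in control and 307, 346 and 260 in Jarid2-KO HSC (log2 0.73, SE 0.33, adjusted p = 0.28). Control replicate 1 was the low library of Pfkl, and the other controls still lay below all 3 Jarid2-KO libraries.

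Entry of glucose was followed through its transporters and hexokinases. Slc2a1 had 24.6, 30.2 and 43.4 CPM in control and 49.6, 68.2 and 46.1 CPM in Jarid2-KO HSC (log2 0.68, SE 0.24, adjusted p = 0.20). Hk2, the inducible hexokinase, had 76.1, 46.4 and 66.6 CPM in control and 103, 76.3 and 103 CPM in Jarid2-KO HSC (log2 0.52, SE 0.20, adjusted p = 0.22). Neither gene overlapped between the groups, though the nearest Hk2 libraries were 76.1 and 76.3 CPM. The more abundant transporter Slc2a3 went the other way, with 300.2, 464 and 376 CPM in control and 348, 284 and 231 CPM in Jarid2-KO HSC (log2 -0.48, SE 0.27, adjusted p = 0.38), and its groups overlapped.

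Among kinases that regulate the pathway, Pdk4, which inactivates pyruvate dehydrogenase, had 1.10, 1.4 and 1.95 CPM in control and 4.38, 2.09 and 3.50 CPM in Jarid2-KO HSC (log2 1.09, SE 0.43, adjusted p = 0.23). It is a low gene, and its groups did not overlap. Pfkfb3, which makes the activator of phosphofructokinase, had 19.4, 23.1 and 36.6 CPM in control and 33.9, 41.7 and 41.5 CPM in Jarid2-KO HSC (log2 0.51, SE 0.23, adjusted p = 0.29). Here 1 control library overlapped the Jarid2-KO libraries.

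The hypoxia genes gave a mixed picture in HSC. Egln3, an oxygen-sensing hydroxylase and itself a HIF target, had 2.20, 1.80 and 1.98 CPM in control and 3.34, 3.55 and 4.39 CPM in Jarid2-KO HSC, without overlap (log2 0.84, SE 0.36, adjusted p = 0.25). Bnip3 (log2 0.18), Vegfa (0.01) and Egln1 (0.23) had fold changes within 1 SE of 0, though the Jarid2-KO libraries of Bnip3 all lay above its controls. Hif1a (-0.38, SE 0.29) and Ankrd37 (-0.39, SE 0.40) lay below 0. Epas1 had 2.79, 1.28 and 1.25 CPM in control and 4.13, 3.68 and 4.44 CPM in Jarid2-KO HSC, without overlap (log2 1.15, SE 0.93, adjusted p = 0.55). Gapdh, with 19.3, 12.7 and 15.1 CPM in control and 8.87, 10.0 and 15.2 in Jarid2-KO HSC (log2 -0.53, SE 0.39, adjusted p = 0.49), is one of the genes whose counts are uncertain.

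Other tools called a few of these genes in HSC: Tpi1 and Ldha by DESeq2, 7 genes by limma-voom and 1 without the filter. Of all genes, DESeq2 called 690 of 15818, limma-voom 1419 of 15818 and the fit without the filter 828 of 32516. Marker lists were read beside these values. The summed level of the granulocyte-monocyte list (11 genes) was 1254 to 3790 CPM in control and 3300 to 9061 CPM in Jarid2-KO HSC, none of the 11 passing the test (median log2 1.15). The sum of the cell cycle list (10 genes) was 1167 to 1618 CPM in control and 1081 to 1580 CPM in Jarid2-KO HSC. The macrophage and dendritic list summed to 479 to 500 CPM in control and 171 to 264 CPM in Jarid2-KO HSC, without overlap and with H2-Aa and Cd74 passing the test as lower among 6 tested, and the immediate early list to 46.2 to 115 and 96.8 to 247 CPM. The part of these lists in the glycolytic difference was not tested.

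**Figure D2:**
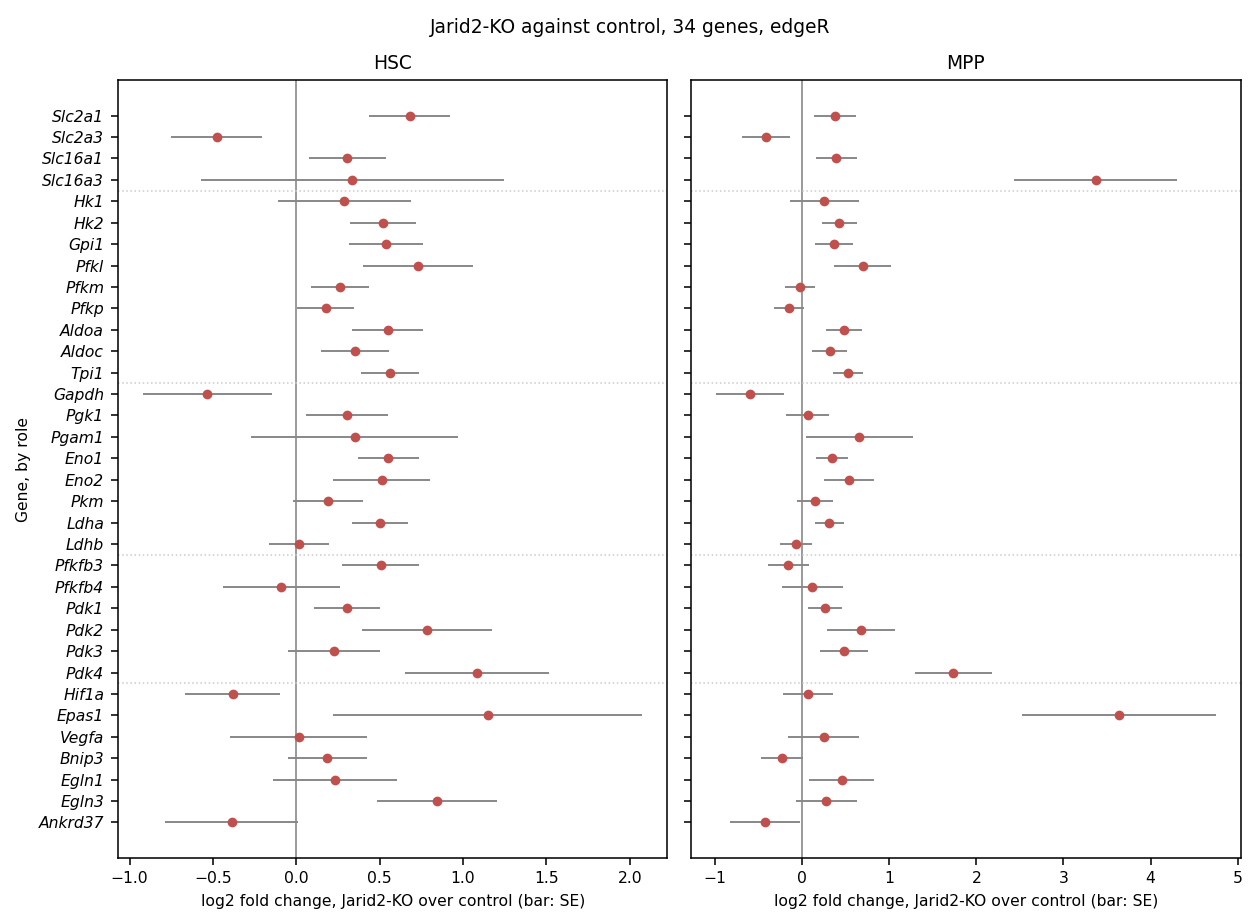
Log2 fold change of Jarid2-KO over control for the 34 genes in HSC (left) and MPP (right), ordered by role from transporters at the top through upper glycolysis, lower glycolysis and regulatory kinases to hypoxia genes; bars are the standard error of the edgeR fit. Points lie above 0 for 29 genes in HSC and 26 in MPP, and the long bars belong to Slc16a3, Epas1 and Pgam1, which have few counts.

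The 250 bases before the starts of these genes were read for the letters that HIF prefers. RefSeq (GRCm38.p6) lists a promoter for 32 of the 34 genes, Epas1 and Slc2a3 being absent, and 11 of the 32 have several listed starts, of which the first was used. The HIF core was searched as ACGTG and GCGTG on both strands, and the E-box CACGTG, a MYC and USF site that contains ACGTG on each strand, was also counted by itself. A HIF core stood in 25 of 32 windows (78.1%), against 38.6% of the 27025 windows of all genes. Pfkm and Pdk2 held a core only within an E-box, and a core outside an E-box stood in 23 of 32 windows (71.9%), against 35.4% of all. For ACGTG alone the shares were 50% and 16.6%, for GCGTG 50% and 28.2%, and for CACGTG 18.8% and 6.05%. The windows of the 32 genes were also richer in G and C, with a median of 62.6% against 52%, and the core holds a CpG, so this share is a description of these letters and not of binding. The set was named for glycolysis and the hypoxia response, whose genes include many HIF targets, so a surplus of cores was built into the choice. The 27025 windows are those of all genes with a listed promoter, not only of genes tested. These shares say nothing about the Jarid2-KO difference.

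The 6 windows below are shown for genes named in these results, each 5′ to 3′ toward the start, with HIF cores in capitals. Ldha holds 3 capital runs, of which 2 are E-boxes, and Bnip3 holds 4, of which 1 is an E-box, while Eno1, Pdk4 and Pfkfb4 hold 1 each and Tpi1 none. Ldha is transcribed from 2 listed starts, and the window shown precedes the one listed first.
Ldha, chr7:46845554-46845803, plus strand: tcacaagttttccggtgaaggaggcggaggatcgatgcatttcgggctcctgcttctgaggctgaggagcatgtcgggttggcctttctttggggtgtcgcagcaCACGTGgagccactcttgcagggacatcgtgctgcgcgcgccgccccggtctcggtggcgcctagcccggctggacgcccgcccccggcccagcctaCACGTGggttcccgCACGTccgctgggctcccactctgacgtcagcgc
Eno1, chr4:150236458-150236707, plus strand: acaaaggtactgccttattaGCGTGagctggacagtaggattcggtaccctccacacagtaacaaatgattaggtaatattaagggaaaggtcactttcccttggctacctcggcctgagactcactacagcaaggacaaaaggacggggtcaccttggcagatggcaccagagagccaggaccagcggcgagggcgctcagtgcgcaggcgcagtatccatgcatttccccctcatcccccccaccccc
Tpi1, chr6:124814159-124814408, minus strand: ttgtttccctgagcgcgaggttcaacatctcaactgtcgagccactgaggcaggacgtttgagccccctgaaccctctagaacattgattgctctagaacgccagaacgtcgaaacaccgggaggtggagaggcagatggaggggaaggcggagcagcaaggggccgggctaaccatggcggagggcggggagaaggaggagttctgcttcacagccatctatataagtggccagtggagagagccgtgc
Pdk4, chr6:5496279-5496528, minus strand: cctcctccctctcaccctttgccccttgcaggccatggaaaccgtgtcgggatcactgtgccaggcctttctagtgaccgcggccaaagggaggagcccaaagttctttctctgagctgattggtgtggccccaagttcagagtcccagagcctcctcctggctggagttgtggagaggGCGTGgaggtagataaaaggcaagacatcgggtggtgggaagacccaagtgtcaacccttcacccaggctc
Bnip3, chr7:138909507-138909756, minus strand: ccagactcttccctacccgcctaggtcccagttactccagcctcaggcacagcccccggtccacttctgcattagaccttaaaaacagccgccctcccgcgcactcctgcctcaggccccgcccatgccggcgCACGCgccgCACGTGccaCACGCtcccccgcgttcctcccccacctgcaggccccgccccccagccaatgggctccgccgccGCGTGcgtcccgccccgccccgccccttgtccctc
Pfkfb4, chr9:108991652-108991901, plus strand: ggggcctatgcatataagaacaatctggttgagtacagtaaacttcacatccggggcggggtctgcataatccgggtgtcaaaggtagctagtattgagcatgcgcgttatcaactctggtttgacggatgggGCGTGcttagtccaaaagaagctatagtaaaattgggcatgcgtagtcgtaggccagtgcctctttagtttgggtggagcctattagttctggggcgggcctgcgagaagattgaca
The gene with the smallest p in HSC, Tpi1, thus had no core in this window, and neither did Aldoa or Gpi1 in theirs. The 7 windows without a core were those of Hk1, Gpi1, Aldoa, Tpi1, Eno2, Pkm and Vegfa. Absence from this window says only that these letters are not in it.

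The second comparison asked the same of progenitors. In MPP the direction was again upward for most genes and again no gene passed the adjusted test. The log2 fold change was above 0 for 26 of 34 genes (all genes 51.8%), with a median of 0.31 (all genes 0.02), and for 23 of 34 with a median of 0.17 when Jarid2-KO replicate 1 was left out. In edgeR 0 of 34 passed, where 150 of all genes (0.948%) passed. An unadjusted p under 0.05 was reached by 5 of 34 genes, against 19.3% of all genes, so this share lay below that of all genes. Without Jarid2-KO replicate 3 the count was 12 of 34, where all genes gave 4539 of 16752. In that fit 4 of 34 genes (Pdk4, Gapdh, Slc16a3 and Epas1) passed the adjusted test, and so did 1512 of the 16752 genes. Far more genes of all kinds passed there than in the main fit, so nothing particular to the set is read from these counts.

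Jarid2-KO MPP libraries lay wholly above control MPP for 8 genes (23.5%; 9.07% of all genes), which were Aldoa, Eno1, Eno2, Hk2, Ldha, Pdk4, Slc2a1 and Tpi1. They lay wholly below for 0 of 34 (12.6% of all genes). Without Jarid2-KO replicate 1 the counts were 13 above (all genes 16.9%) and 2 below, Hk1 and Pfkp (all genes 20.6%). Of the 8 genes, 7 were among the 14 that did not overlap in HSC, Eno2 being the other. The share of all genes wholly above in both cell types was not computed, so nothing particular to the set is read from this count.

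Pdk4 (chr6:5483351-5496309) had the smallest p in MPP. It stood at 0.997, 0.942 and 0.838 CPM in control and 2.63, 4.18 and 2.48 CPM in Jarid2-KO MPP, with no overlap (log2 1.74, SE 0.44, adjusted p = 0.079). Without Jarid2-KO replicate 1 its edgeR log2 fold change was 1.82 with an adjusted p of 0.089. With that library kept, DESeq2 and limma-voom called Pdk4 (adjusted p = 0.0059 and 0.037), and neither tool was run without it. Tpi1 had 176, 154 and 155 CPM in control and 227, 262 and 209 CPM in Jarid2-KO MPP (log2 0.53, SE 0.17, adjusted p = 0.13), again with every Jarid2-KO library above every control. Aldoa had 959, 994 and 946 CPM in control and 1609, 1326 and 1094 CPM in Jarid2-KO MPP (log2 0.48, SE 0.21, adjusted p = 0.23), the highest being replicate 1.

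Ldha showed a smaller step in MPP than Tpi1, with 372, 342 and 337 CPM in control and 461, 440 and 398 CPM in Jarid2-KO (log2 0.31, SE 0.17, adjusted p = 0.32). Eno1 had 146, 148 and 149 CPM in control and 221, 180 and 157 CPM in Jarid2-KO MPP (log2 0.34, SE 0.18, adjusted p = 0.33). Control MPP libraries were close to each other for both genes, so the groups separated although the fitted steps were small. Hk2 had 56.4, 57.1 and 50.7 CPM in control and 60.7, 85.1 and 74.6 CPM in Jarid2-KO MPP (log2 0.42, SE 0.20, adjusted p = 0.26).

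**Figure D3:**
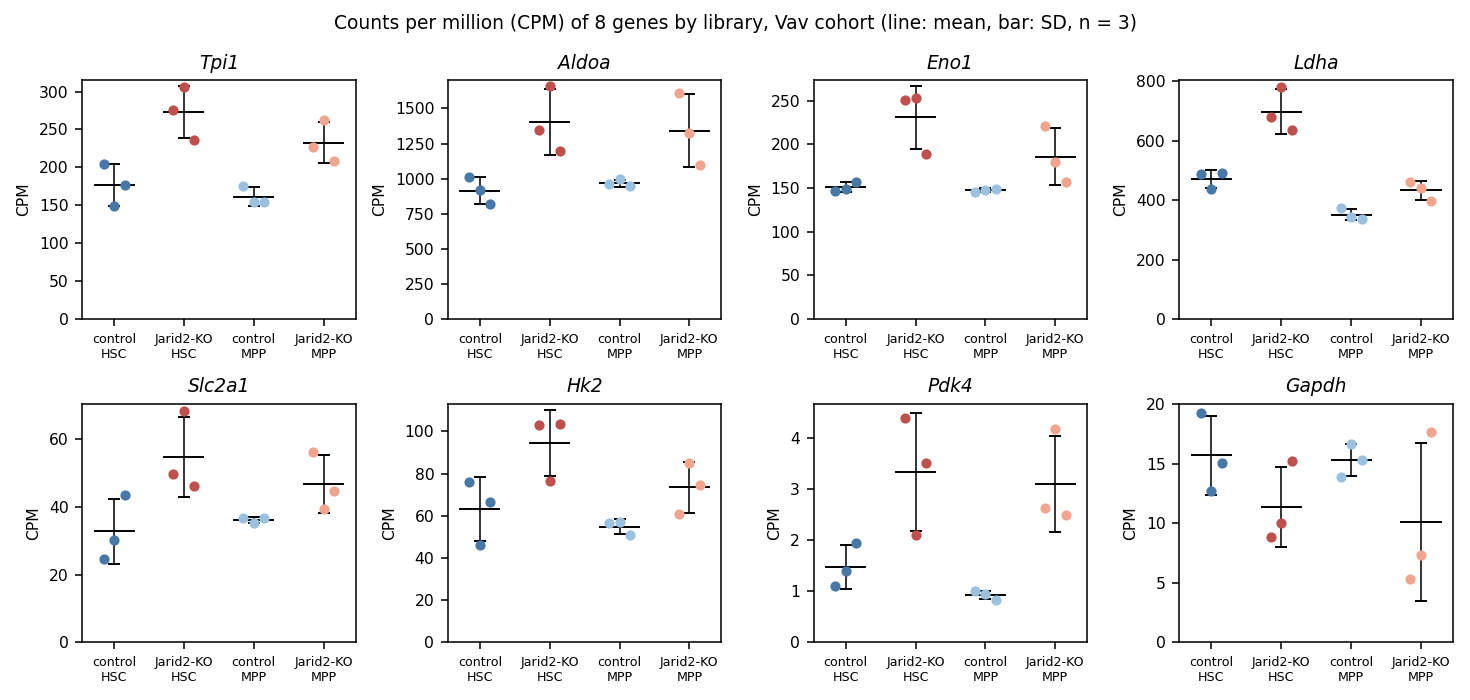
CPM of 8 genes in each Vav library, on axes from 0, with a point per library, a line at the group mean and a bar of SD (n = 3). Tpi1, Aldoa, Eno1, Ldha, Slc2a1, Hk2 and Pdk4 have all Jarid2-KO points above the controls of the same cell type, and Gapdh overlaps in both cell types.

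Other genes of the set depended on 1 library. Slc16a3, the lactate exporter of highly glycolytic cells, had 1.54, 0.942 and 0.529 CPM in control MPP and 26.6, 2.34 and 1.24 CPM in Jarid2-KO MPP replicates 1, 2 and 3. Its log2 fold change of 3.37 (SE 0.94, adjusted p = 0.095) came to 0.83 (adjusted p = 0.54) without replicate 1. Epas1, the HIF alpha subunit also known from endothelium, had 0.091, 0.298 and 0.132 CPM in control MPP and 5.95, 0.111 and 0.286 CPM in Jarid2-KO MPP. Its log2 fold change went from 3.63 (SE 1.11, adjusted p = 0.11) to 0.08 (adjusted p = 0.97) without that library. Pfkl was likewise led by it, with 470 CPM against 172 and 240 in the other Jarid2-KO MPP and 178, 179 and 194 in controls (log2 0.69 with it, adjusted p = 0.26, and 0.15 without, adjusted p = 0.80).

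That library was also high in markers of other cells. Its granulocyte-monocyte list summed to 23426 CPM, against 13822 in replicate 2 and 6127 in replicate 3, while control MPP held 4821 to 6275 CPM. Its stroma and endothelium list (8 genes) summed to 578 CPM, against 117 and 160 in the other Jarid2-KO MPP and 162 to 200 in controls. Cxcl12 stood at 51.0 CPM there, at 22.2 and 2.48 in replicates 2 and 3 and at 0.181 to 2.68 in controls. Cdh5, an endothelial cadherin, stood at 5.83 CPM, against 0.668 and 1.24 in replicates 2 and 3. Pecam1 of the same list went the other way, at 58.7 CPM against 77.9 and 75.9 in replicates 2 and 3 and 130 to 157 in controls. Of the 8, Cxcl12 and Col4a1 passed the test in MPP as higher and Pecam1 as lower. The immediate early list, which reads handling stress, summed to 1105 CPM against 58.3 and 166, and the cell cycle list to 1778 CPM against 920 and 988, with 1034 to 1253 in controls. Progenitor markers moved with genotype too: the MPP list (5 genes) summed to 1466 to 1693 CPM in control and 641 to 952 CPM in Jarid2-KO MPP, Dntt and Satb1 passing the test as lower. The macrophage and dendritic list summed to 520 to 734 CPM in control and 292 to 313 CPM in Jarid2-KO MPP, with Cd68, H2-Aa and Cd74 passing as lower. The part of these differences in the values above was not tested.

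**Figure D4:**
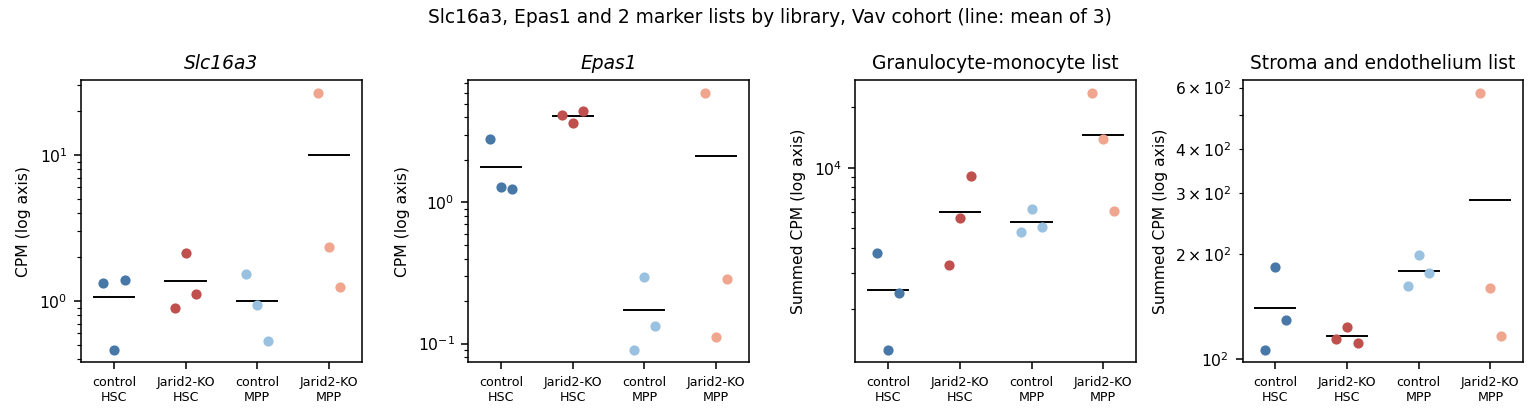
CPM of Slc16a3 and Epas1 and summed CPM of the granulocyte-monocyte and the stroma and endothelium lists in each Vav library, on log axes, with a line at the group mean. Jarid2-KO MPP replicate 1, the left point of its group, is highest in all 4 panels.

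Whether the Jarid2 effect differed between HSC and MPP was tested as an interaction. No gene of the set passed, and 0 of all 15818 genes (0%) passed in edgeR, with 1 of 34 and 419 of all genes at an unadjusted p under 0.05. DESeq2 called 7 of all genes and limma-voom 0, none of them among the 34. That gene was Slc16a3 (log2 difference 3.03, SE 1.28, unadjusted p = 0.032), which rests on the single library named above. For Tpi1 the difference was -0.04 (SE 0.24) and for Aldoa -0.07 (SE 0.30). Pfkfb3 had the widest gap among abundant genes, -0.67 (SE 0.33), from 0.51 in HSC to -0.16 in MPP, where its libraries overlapped.

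The third comparison was between cell types of the same genotype, and shares control and Jarid2-KO libraries with the comparisons above. Most of the set did not separate HSC from MPP. In controls 16 of 34 genes had a log2 fold change of MPP over HSC above 0, with a median of -0.04 (all genes -0.02), and 0 of 34 passed where 185 genes (1.17%) passed. An unadjusted p under 0.05 was reached by 2 of 34, Ldha and Epas1, against 8.44% of all genes. Control MPP lay wholly above control HSC for Egln3, Gpi1 and Pfkfb4 (8.82% of the set, 10.7% of all genes) and wholly below for Epas1, Ldha and Pdk4 (8.82%, 7.69% of all genes).

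In Jarid2-KO cells 11 of 34 were above 0 (15 of 34 under DESeq2 size factors), with a median of -0.06 (all genes 0.05), and 0 of 34 passed where 83 genes (0.525%) passed. An unadjusted p under 0.05 was reached by 3, Ldha, Pfkp and Slc16a3 (all genes 10.8%). Jarid2-KO MPP lay wholly above Jarid2-KO HSC for 0 genes (all genes 4.88%) and wholly below for Ldha and Pfkp (5.88%, all genes 6.87%).

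Ldha was thus lower in MPP in both genotypes, though not past the adjusted edgeR test. Its range was 436 to 489 CPM in control HSC and 337 to 372 CPM in control MPP (log2 -0.49, SE 0.17, adjusted p = 0.27). In Jarid2-KO it was 634 to 780 CPM in HSC and 398 to 461 CPM in MPP (log2 -0.68, SE 0.17, adjusted p = 0.11). Neither pair of groups overlapped, and DESeq2 called both (adjusted p = 0.046 and 0.0019) and limma-voom the first (adjusted p = 0.037). The 4 group levels ran in the order control MPP, Jarid2-KO MPP, control HSC and Jarid2-KO HSC, of which only Jarid2-KO MPP and control HSC overlapped.

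Epas1 had the widest gap between cell types, with 1.25 to 2.79 CPM in control HSC and 0.091 to 0.298 CPM in control MPP (log2 -3.37, SE 1.11, adjusted p = 0.24). The control MPP values lie near the floor, the lowest resting on 2 counts. Limma-voom called it (adjusted p = 0.0078), and in Jarid2-KO cells edgeR called it without Jarid2-KO MPP replicate 1 (log2 -4.44, adjusted p = 0.0074, against -0.88 and 0.80 with it). Of all genes, 735 of 15818 passed in that limma-voom comparison and 138 of 16585 in that edgeR fit. Hif1a, the more abundant alpha subunit, stood at 45.6 to 75.4 CPM in control HSC and 44.5 to 56.3 CPM in control MPP, and its groups overlapped (log2 -0.26, SE 0.29).

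Genes next to this set were read from lists chosen with earlier results known. Of 19 tested other glycolytic enzymes, 13 genes of HIF control, 25 other HIF targets, 10 of pyruvate entry, 16 of the citric acid cycle and 8 of the pentose phosphate pathway, 0 passed in either Jarid2-KO comparison. Their median log2 fold changes in HSC were 0.00, 0.02, -0.01, -0.14, 0.22 and 0.48, and in MPP 0.15, 0.12, 0.19, 0.14, 0.05 and 0.29.

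Of 8 tested genes of gluconeogenesis and glycogen, 2 passed in both cell types, and both were higher. Fbp1, the fructose bisphosphatase that runs the phosphofructokinase step backwards, had 57.0, 74.4 and 35.4 CPM in control and 171, 196 and 135 CPM in Jarid2-KO HSC (log2 1.51, SE 0.27, adjusted p = 0.028). In MPP it had 82.3, 99.4 and 66.5 CPM in control and 316, 249 and 307 CPM in Jarid2-KO (log2 1.83, SE 0.28, adjusted p = 0.0059). Its groups did not overlap in either cell type. The call in HSC was lost without control replicate 1 or 3 or Jarid2-KO replicate 1 or 2 (adjusted p = 0.07, 0.083, 0.10 and 0.15), and in MPP without control replicate 3 (adjusted p = 0.052).

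Pygm, which releases glucose phosphate from glycogen, had 56.6, 62.1 and 66.5 CPM in control and 138, 146 and 149 CPM in Jarid2-KO HSC (log2 1.16, SE 0.16, adjusted p = 0.0061). In MPP it had 45.1, 39.8 and 43.4 CPM in control and 92.2, 107 and 98.2 CPM in Jarid2-KO (log2 1.21, SE 0.16, adjusted p = 0.0026). Replicates lay close together, and genotypes did not overlap in either cell type. In the fit of the 2 MPP groups alone its adjusted p was 0.080.

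In the Mx1 cohort, heart muscle RNA had to be read first. Ttn and Myh6, genes of heart muscle fibres, were present in all 12 libraries, and a heart list of 20 genes took 6.19 to 9.45% of counts in 6 libraries and 0.533 to 1.24% in the other 6, against at most 0.00334% in any Vav library. The 6 high libraries were control MPP replicate 2, Jak2V617F HSC replicate 2, both Jak2V617F MPP and replicate 1 of the double mutant in HSC and MPP. Sort markers separated HSC from MPP as labelled in the double mutant alone. Slamf1 stood at 0.196 and 5.21 CPM in control HSC against 6.95 and 3.77 in control MPP, at 12.7 and 5.04 in Jak2V617F HSC against 1.09 and 6.22 in MPP, and at 30.8 and 124 in double mutant HSC against 8.15 and 6.75 in MPP. Flt3 stood at 124 and 85.3 CPM in control HSC against 117 and 18.9 in MPP, at 58.8 and 33.6 in Jak2V617F HSC against 25.7 and 22.9 in MPP, and at 21.9 and 47.1 in double mutant HSC against 48.7 and 181 in MPP. The granulocyte-monocyte list summed to 18898 to 80210 CPM in control and Jak2V617F libraries and to 3010 to 6690 CPM in the double mutant.

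Of the 34 genes, 14 (41.2%) lay wholly higher in the 6 libraries rich in heart RNA, where this held for 16.5% of all genes tested, 2 (5.88%) lay wholly lower (all genes 9.67%) and 18 overlapped. Vegfa stood at 231 to 371 CPM in those 6 libraries and at 20.3 to 52.9 CPM in the other 6, against 2.21 to 5.44 CPM in Vav libraries. Epas1 stood at 110 to 201 CPM against 8.93 to 22.4, and Pdk4, the kinase that spares glucose in muscle, at 147 to 224 CPM against 14.9 to 27.8. Among glycolytic genes Pfkm, the muscle phosphofructokinase, stood at 464 to 679 CPM against 117 to 261 and Ldhb at 285 to 447 CPM against 72.4 to 169. The 2 lower genes were Eno1, at 60.1 to 146 CPM against 175 to 390, and Slc2a3, at 74.7 to 144 CPM against 196 to 400.

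In a fit with a term for these 6 libraries, 23 of 34 genes passed for the term itself, 17 higher and 6 lower, against 38.5% of all genes. The highest values were those of Epas1 with a log2 of 3.47 (SE 0.27), Vegfa with 3.21 (SE 0.25), Pdk4 with 3.16 (SE 0.24), Egln3 with 2.84 (SE 0.38) and Egln1 with 2.42 (SE 0.23), each over 12 libraries (adjusted p 1.86e-12, 8.02e-13, 6.1e-13, 2.32e-07 and 1.06e-10). Their levels in this cohort therefore cannot be told apart from heart RNA.

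**Figure D5:**
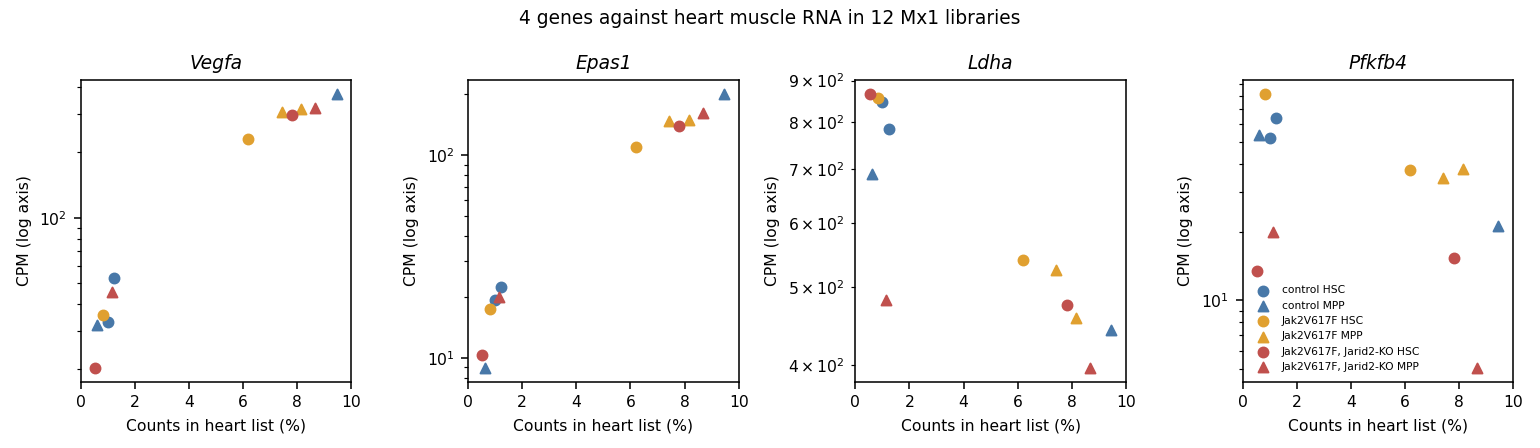
CPM (log axis) of Vegfa, Epas1, Ldha and Pfkfb4 in the 12 Mx1 libraries against the percentage of counts in the heart list, coloured by genotype, with circles for HSC and triangles for MPP. Vegfa and Epas1 are high in the 6 libraries above 6% heart counts, and Pfkfb4 is lowest in the double mutant within each set of 6.

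Without that term, 0 of 34 genes passed in any of the 5 Mx1 comparisons, and 0 of 19616 genes did (0%). At an unadjusted p under 0.05 there were 0 of 34 between control MPP and HSC and between Jak2V617F and control in HSC and MPP (all genes 523, 299 and 264), 1 between double mutant and Jak2V617F HSC (all genes 919) and 2 between the matching MPP (588), and DESeq2 and limma-voom called 0 of the 34. Over all genes DESeq2 called 0 to 345 and limma-voom 0 to 12 in these comparisons. With the term, 0 genes of any kind passed in the first 3 comparisons, while 539 (2.75%) passed for the double mutant against Jak2V617F in HSC and 116 (0.591%) in MPP. A single gene of the set (2.94%) passed in each of these, Pfkfb4, and it was lower in the double mutant. With 1 gene in each, nothing about the set is read from these shares.

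Pfkfb4 (chr9:108991902-109032223) makes and removes the activator of phosphofructokinase. Among libraries low in heart RNA it stood at 13.5 and 20.1 CPM in the double mutant and at 52.3 to 81.6 CPM in the other 4, and among those rich in it at 15.4 and 5.02 CPM against 21.4 to 38.2 CPM. The double mutant was lowest within both sets. The log2 fold change against Jak2V617F was -2.0 (SE 0.44, adjusted p = 0.0074) in HSC and -2.40 (SE 0.49, adjusted p = 0.0076) in MPP with the term, and -2.31 (adjusted p = 0.50) and -1.63 (adjusted p = 1) without it. In the Vav cohort the gene had 16.2 to 26.4 CPM in Jarid2-KO HSC and 17.1 to 27 in control HSC, with overlap (log2 -0.09, SE 0.35). In Vav MPP it had 55.0, 31.5 and 18.7 CPM in Jarid2-KO and 32.3, 28 and 37.2 in control, again with overlap and with a log2 fold change above 0 (0.11, SE 0.35). The granulocyte-monocyte list moved with the double mutant as given above, and its part in Pfkfb4 was not tested.

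Double mutant libraries lay wholly below the others within both sets for 2 of 34 genes, Pfkfb4 and Gpi1 (5.88%, 2.59% of all genes), and wholly above for 2, Aldoc and Pfkl (5.88%, 4.73% of all genes). With 2 genes in each direction, nothing is read from these shares. Aldoc, the brain-type aldolase, stood at 34.8 and 71.2 CPM in the double mutant against 3.14 to 12.4 CPM in the libraries low in heart RNA, and at 23.7 and 59.2 CPM against 9.57 to 19.6 CPM in those rich in it. With the term its log2 fold change against Jak2V617F was 1.12 (SE 0.51, adjusted p = 0.35) in HSC and 1.64 (SE 0.54, adjusted p = 0.29) in MPP. Pfkl was likewise highest in the double mutant, at 209 and 344 CPM against 143 to 181 and at 192 and 231 CPM against 137 to 161, with an adjusted p of 0.20 in HSC and 0.99 in MPP. Gpi1 was lowest, at 269 and 397 CPM against 635 to 824 and at 259 and 275 CPM against 338 to 399, with an adjusted p of 0.26 in HSC and 0.47 in MPP. Pfkl had the same direction in the Vav cohort and Gpi1 the opposite one, and neither was past the test in either cohort.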

How the data were processed

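RNA from 3 to 5 ng per pool was made into libraries with a low-input SMARTer kit, per the labels' protocols. The submitters' processing notes name build mm10, Partek 6.6, HTSeq 0.8.0, featureCounts 1.4.5 of Subread and STAR 2.0.4, with no roles; the annotation and the treatment of reads that match several places are not given in the sources used here. Each deposited table, per the file headers, gives a raw count per Ensembl gene, the authors' CPM (the count scaled to the library's total) and the authors' RPKM (CPM per kilobase of gene length).

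Counts were tested in edgeR 4.0.16 (R 4.3.3) by the quasi-likelihood test with TMM scaling and filterByExpr (minimum count 10, minimum total 15), 1 fit per cohort over all its groups. P-values were adjusted over all genes tested by Benjamini-Hochberg, with a threshold of 0.05. CPM and RPKM are printed as deposited. Alternatives were DESeq2 size factors, no filter, DESeq2 1.42.0, limma-voom (limma 3.58.1) with sample weights, a replicate block, each library left out, and, in the Mx1 cohort, a term for libraries with over 4% of counts in the heart list. Fits of only the groups compared, the reading of the heart term itself, counts without Jarid2-KO MPP replicate 1 and HIF cores outside an E-box were added after seeing the data. The fit was tested on data simulated with the same spread in both cohorts and without a heart term. The spread between libraries of a group was wider in the Mx1 fit (biological coefficient of variation 0.786) than in the Vav fit (0.3367). That test therefore does not cover the Mx1 fits.

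Groups follow the labels. The design text names a Jarid2-KO group in the Mx1 cohort where the labels give Jak2V617F. All 34 genes are named, with up to 4 genes past the threshold per list, Slamf1 and Flt3 for the gate and Ttn and Myh6 for heart RNA. Cxcl12 and Cdh5 were named after their values were seen. The members and lists were chosen with earlier results of these data known. Promoter windows come from RefSeq GRCm38.p6.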

Additional observations from a re-analysis of the deposited data

Results flagged for a closer look

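In the Mx1 cohort 2 genes moved in opposite directions in HSC and MPP in every library, and the difference between the cell types was not tested. Hk1 averaged 271 CPM in Jak2V617F HSC (304 and 238), above control HSC (225 and 219), while Jak2V617F MPP (211 and 208) lay below control MPP (272 and 225). Ankrd37 averaged 6.81 CPM in double mutant HSC (6.97 and 6.65), above Jak2V617F HSC (0.62 and 2.91), while double mutant MPP (2.94 and 1.02) lay below Jak2V617F MPP (6.62 and 3.16). In the edgeR fit with the term for heart RNA, Hk1 stood at log2 0.38 (SE 0.29, adjusted p = 0.81) in HSC and -0.18 (SE 0.30, adjusted p = 1) in MPP, and Ankrd37 at log2 2.10 (SE 1.20, adjusted p = 0.53) and -0.89 (SE 1.22, adjusted p = 0.98), so neither gene passed in either cell type.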

How the results depend on the processing

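The count of genes of the set past the adjusted test was 0 in every comparison with edgeR and differed with other settings. Without the filter it was 1 for Jarid2-KO HSC (Pfkl), 2 for Jarid2-KO MPP, 1 for control MPP against HSC and 1 for Jarid2-KO MPP against HSC. With DESeq2 these counts were 2, 3, 1 and 2, and with limma-voom 7, 1, 2 and 0. For MPP against HSC without the filter, 451 of all 32516 genes passed in control and 563 in Jarid2-KO. Of all 15818 genes, DESeq2 called 474 and 404 in these comparisons and limma-voom 735 and 101. Fitting only the groups compared gave 1 for control MPP against HSC (Epas1), where all genes gave 395 of 15095. Leaving out each library in turn gave 0 to 4 for Jarid2-KO MPP (all genes 34 to 1512), the highest of both without Jarid2-KO replicate 3. It gave 0 to 1 for Jarid2-KO MPP against HSC (all genes 36 to 180). The heart term gave 1 and 1 for the double mutant in HSC and MPP (all genes 539 and 116). At an unadjusted p under 0.05 the count for HSC was 5 to 9 when a library was left out (all genes 1381 to 2879), and for MPP 4 to 12 (all genes 1828 to 4539). For MPP it was 8 by limma-voom (all genes 3230) and 3 in the fit of only these groups (all genes 2230). The number of genes above 0 stayed at 26 to 29 for HSC and 23 to 27 for MPP when a library was left out. Over all genes the count called depended on the setting: for Jarid2-KO HSC it was 828 without the filter, 690 with DESeq2, 1419 with limma-voom and 293 in the fit of only these groups, and for Jarid2-KO MPP 1306, 1109, 461 and 19. The causes were not tested.

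With a replicate block, 0 genes of the set passed in either Jarid2-KO comparison, 29 and 26 lay above 0, and 45 and 106 of all genes passed. Same-numbered control and Jarid2-KO libraries of a cell type had correlations of their deviations from -0.349 to 0.179. Same-numbered HSC and MPP of a genotype had -0.0461 to 0.365, and differently numbered ones -0.362 to 0.365. With 3 libraries a group, these values cannot settle whether the numbers pair the libraries. With a block of genotype and number, 0 genes of the set passed between MPP and HSC in either genotype or in the interaction. Of all genes 167 passed in control, 77 in Jarid2-KO and 0 in the interaction.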
